A study of Neurospora crassa with 30 samples.

Results

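The comparison described here set wild type (WT) mycelia of the filamentous fungus *Neurospora crassa* exposed to xyloglucan against WT mycelia exposed to avicel, a microcrystalline cellulose. The samples were chosen by the carbon source in their labels, which gave 3 xyloglucan samples and 3 avicel samples, or 6 of the 30 samples of the series, and all 9758 genes of the count tables were examined. Both groups were strain FGSC 2489 with a wild type genotype and carried no transgene or deletion. Both were grown for 16 hrs with 2% sucrose in Vogel's minimal medium (VMM), in constant light at 25°C and 200 rpm, then washed and moved for 4 hrs to VMM with the polysaccharide. The methods of the study give 1% (w/v) for both polysaccharides, while the design text of the series gives 2% (w/v) for insoluble carbon sources. The other 24 samples came from 8 carbon sources (cellobiose, xylose, glycerol, fructose, mannose, sorbose, maltose and trehalose) given at 2 mM, with 3 samples each.

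Both substrates are β-linked glucans of the plant cell wall. Cellulose is an unbranched chain packed into crystals, which *N. crassa* attacks with secreted cellobiohydrolases and endoglucanases and with copper-dependent oxidative enzymes that take electrons from cellobiose dehydrogenase. Xyloglucan has a glucan backbone that carries xylose side chains, some of them capped by galactose, so that its full breakdown needs xyloglucanase, α-xylosidase and β-galactosidase beside β-glucosidase. The regulators CLR-1 and CLR-2 are known to be needed for the cellulase response of this fungus, and XLR-1 for the xylanase response.

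The 3 xyloglucan libraries held 13018483 to 17212793 counts on genes and the 3 avicel libraries 15152865 to 16842365. Alignments to several places, which the counting left out of the genes, made up 2.17% to 3.33% of the xyloglucan libraries and 0.217% to 0.269% of the avicel libraries, and the lowest of the other 24 libraries had 0.966%. Between replicates, a chi-square test over genes gave 7.96 to 35.6 per degree of freedom for pairs of xyloglucan samples and 36.5 to 96.6 for pairs of avicel samples, where 1 would be sampling noise alone. The labels name 3 numbered samples per carbon source and the study calls its replicates biological. The level of a gene is given below as CPM, its counts scaled to libraries of equal size after edgeR's TMM method. Fold changes come from edgeR's quasi-likelihood test on all 30 samples, and a gene was called changed, and is said to be higher or lower, at a fold change above 2 with a Benjamini-Hochberg adjusted p under 0.01 over the 8501 genes tested. CPM values are relative to the other transcripts in a library, so that fewer cells expressing a gene and less RNA per cell cannot be told apart.

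Between the 2 polysaccharides 1105 of 8501 genes (13%) were changed, 434 of them (5.11%) higher and 671 (7.89%) lower in xyloglucan than in avicel. The decreases were larger than the increases: 108 genes were over 10-fold lower and 13 genes over 10-fold higher. Over all genes tested the median log2 fold change was 0.01. At any fold, 2971 of the 8501 genes had an adjusted p under 0.01, 1431 with positive and 1540 with negative log2 fold changes. The counts at an unadjusted p under 0.05 given below for single lists thus stand against a high background, whose share was not computed. The genes that were lower had summed mean levels of 26995 CPM in xyloglucan and 219076 CPM in avicel, and the genes that were higher had 182715 CPM in xyloglucan and 56827 CPM in avicel. The 3 xyloglucan samples and the 3 avicel samples did not overlap in 1104 of the 1105 changed genes. The thresholds make such a separation likely, and it was also found in genes that were not called. Its share over all genes tested is not given here, so that the count adds no evidence.

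Within the avicel group, replicate 3 was the lowest sample in 356 of the 434 higher genes and the highest in 453 of the 671 lower genes. Without it 956 genes were changed, 353 higher and 603 lower. With the share of alignments to several places as a covariate, a fit chosen after that share had been seen to differ, 999 genes were changed, 806 of them among the 1105 and in the same direction. In that fit 22 of the 164 genes named by rule or by choice lost their call, among them *ncw-5*, NCU01830, *tca-2*, *gh35-2*, *gh28-2*, *mtr*, *ilv-2*, *cys-16*, *crp-10*, NCU01080, NCU04537, NCU12154, NCU06137, NCU06120, NCU06121, NCU09956, NCU09957 and NCU07226.

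**Figure D1:**
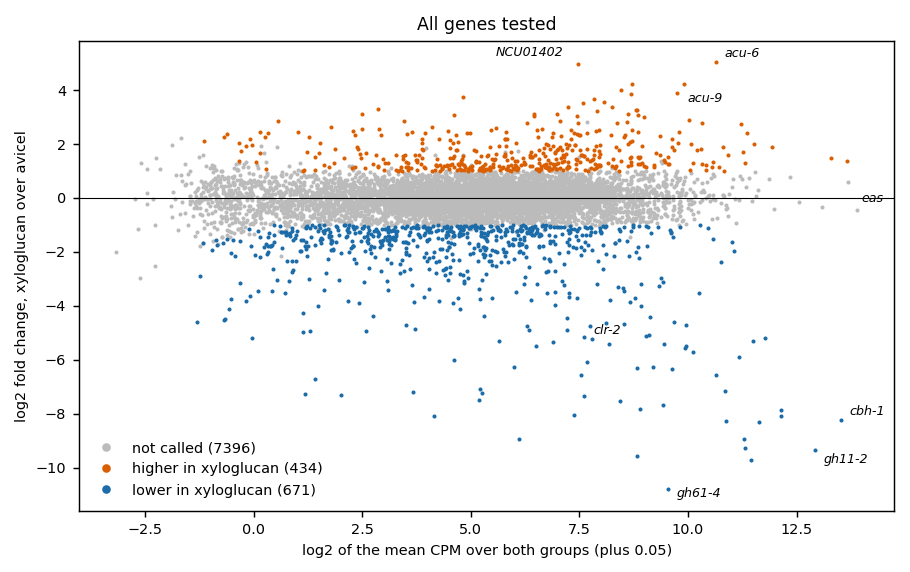
Each point is 1 of the 8501 genes tested, with the log2 of its mean CPM over both groups on the x axis and its log2 fold change, xyloglucan over avicel, on the y axis. The 434 genes higher in xyloglucan reach a log2 fold change of 5.04 (*acu-6*), while the 671 lower genes reach -10.79 (*gh61-4*), and several of the lowest points are among the genes with the most counts (*cbh-1*, *gh11-2*).

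The cellulase genes were among the largest differences. *cbh-1* (NCU07340), which encodes the main cellobiohydrolase, stood at 79.6, 77.4 and 78.7 CPM in the 3 xyloglucan samples and at 25216, 13863 and 31421 CPM in the 3 avicel samples. Each xyloglucan value was far under the lowest avicel value, and the xyloglucan samples lay close to each other, while avicel replicate 2 was the lowest of its group here and in every other cellulase gene tested. The log2 fold change was -8.22 (SE 0.49, adjusted p = 2.3e-12), a 299-fold lower level in xyloglucan. The second cellobiohydrolase gene, *gh6-2* (NCU09680), had 20.8, 19.2 and 20.4 CPM in xyloglucan against 6630.3, 3238 and 9059 CPM in avicel (log2 fold change -8.29, SE 0.63). The endoglucanase gene *gh5-1* (NCU00762) had 12.0, 8.51 and 10.6 CPM in xyloglucan and 5361, 2454 and 7216 CPM in avicel (log2 fold change -8.91, SE 0.53). Of the 10 cellulase genes listed (families GH5, GH6, GH7 and GH45), 9 could be tested, 8 were lower and none was higher. The lower ones were 88.9% of those tested, where 7.89% of all genes were lower. The median log2 fold change was -6.30 where all genes had 0.01. The other members that were lower were *gh6-3* (-8.09), *gh7-1* (-6.30), *gh7-2* (-3.70), *gh7-4* (-3.51) and *gh45-1* (-2.82), with adjusted p of at most 2.7e-07. The remaining tested member, *gh6-1*, was low in both groups, at 1.43, 1.11 and 1.18 CPM in xyloglucan and 0.972, 0.567 and 1.11 CPM in avicel (log2 fold change 0.51, adjusted p = 0.31). *gh7-3* had too few reads to be tested, with 1 count over the xyloglucan samples and 0 over the avicel samples.

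Summed over the 10 genes, the cellulases made up 191, 183 and 186 CPM in the xyloglucan samples, against 47740.4, 25040.5 and 62510.0 CPM in the avicel samples. As a share of all counts on genes, that was 0.0193% on average in xyloglucan and 4.41% in avicel. For each such sum an exact two-sided permutation test on the log2 of the sums was run, and where the 3 samples of one group all lay above the 3 of the other its p was 0.1, the smallest p that 3 samples against 3 allow, so that no sum could pass 0.05. The cellulase sums reached that p, which is 0.125 after Benjamini-Hochberg adjustment over the 25 sums computed.

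The genes of oxidative cellulose attack showed the same direction. The largest fall of all genes tested was that of *gh61-4* (NCU01050), a member of the family of lytic polysaccharide monooxygenases, with 0.771, 0.814 and 0.932 CPM in xyloglucan and 1623, 923 and 1944 CPM in avicel (log2 fold change -10.79, SE 0.50, adjusted p = 4.7e-14). The xyloglucan values rest on few reads, 14, 11 and 15 counts, against 26725, 14649 and 28090 counts in avicel. *cdh-1* (NCU00206), the cellobiose dehydrogenase gene, had 13.2, 12.0 and 12.0 CPM in xyloglucan and 4079.5, 1800.5 and 5403 CPM in avicel (log2 fold change -8.24, SE 0.61, adjusted p = 9.6e-11). Here too the groups were separated by orders of magnitude. Of the 15 genes of this list, all tested, 11 were lower (73.3%, against 7.89% of all genes) and none was higher. The median log2 fold change was -4.70. *gh61-5* (-9.25), *gh61-7* (-7.67), *pmo-3* (-7.53) and *gh61-1* (-7.15) fell the most after *gh61-4*, apart from *cdh-1*, while *gh61-8*, *gh61-9*, *gh61-10* and *cdh-2* did not pass the test (log2 fold changes 0.23, -0.37, -0.13 and -0.40).

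Genes for the uptake and hydrolysis of cellodextrins, the short glucose chains released from cellulose, were also lower. The transporter gene *cdt-2* (NCU08114) stood at 196, 142 and 215 CPM in xyloglucan and 6541, 5286 and 8496 CPM in avicel (log2 fold change -5.20, SE 0.27), and *cdt-1* (NCU00801), for a second cellodextrin transporter, at 187, 140.3 and 252 CPM in xyloglucan and 2546, 1725 and 2451 CPM in avicel (log2 fold change -3.53, SE 0.23). The intracellular β-glucosidase gene *gh1-1* (NCU00130) had 153, 121 and 159 CPM in xyloglucan and 5768, 3523 and 7529 CPM in avicel (log2 fold change -5.28, SE 0.34). Adjusted p was at most 1.0e-11 for these 3 genes. In each of them the difference was far larger than the spread within either group, although the fold was smaller than for *cbh-1*, *gh6-2* and *gh5-1*. Of the 10 genes of this list, all tested, 7 were lower (70%, against 7.89% of all genes) and none was higher. The median log2 fold change was -2.96. The others that fell were *gh3-6* (-6.09), *gh3-4* (-4.62), *gh3-3* (-1.11) and *cbt-1*, for a cellobionic acid transporter (-2.38). *gh3-2*, *gh3-5* and *gh3-1* did not pass, with log2 fold changes of 0.60, -0.17 and -0.20.

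**Figure D2:**
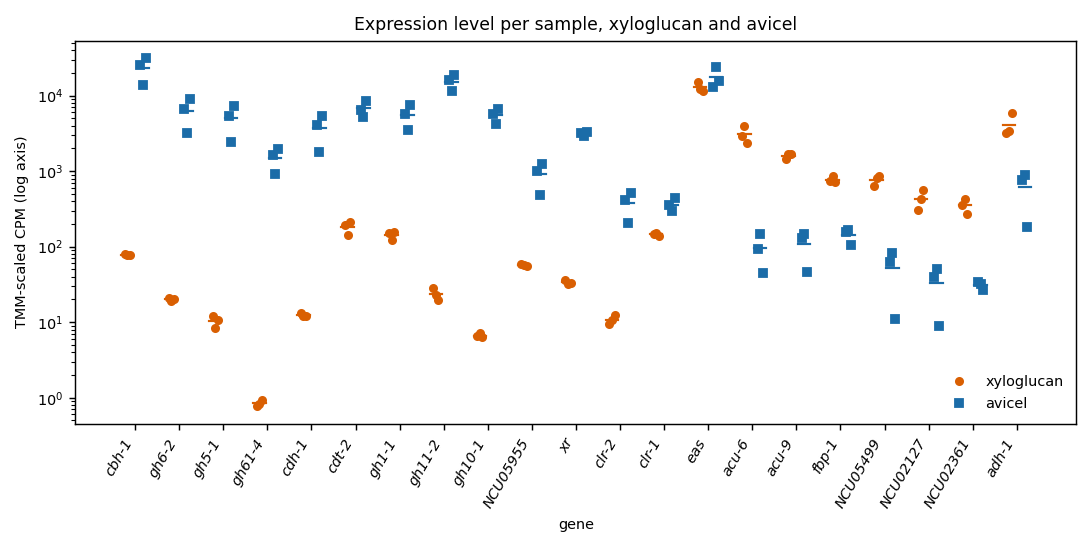
The TMM-scaled CPM of 21 genes (log y axis) is plotted for the 3 xyloglucan samples (circles) and the 3 avicel samples (squares), with a line at each group mean. Cellulase, xylanase and *clr-2* points lie far lower in xyloglucan, *acu-6*, *acu-9* and the genes right of them lie higher, and the 2 groups overlap for *eas*.

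Genes for the breakdown of xylan, another hemicellulose, were lower too. The xylanase gene *gh11-2* (NCU07225) had 28.6, 23.1 and 19.8 CPM in xyloglucan and 15891, 11465 and 18839.6 CPM in avicel, where it alone took 1.51% of all counts. Its log2 fold change was -9.33 (SE 0.75, adjusted p = 3.8e-10). A second xylanase gene, *gh10-1* (NCU05924), had 6.50, 7.17 and 6.28 CPM in xyloglucan and 5708, 4253 and 6732 CPM in avicel (log2 fold change -9.71, SE 0.76), and NCU05159, annotated as an acetylxylan esterase, had 42.8, 36.9 and 36.1 CPM in xyloglucan and 9506, 6248 and 11175 CPM in avicel (log2 fold change -7.86, SE 0.52). Of the 19 genes of this list, all tested, 16 were lower (84.2%, against 7.89% of all genes) and none was higher. The median log2 fold change was -4.35. *gh11-1* (-6.25), *gh10-2* (-5.88) and the acetylxylan esterase gene NCU03181 (-5.41) were among the others that fell. The members that did not pass were *gh10-4* (-0.20), the arabinofuranosidase gene NCU09170 (-0.84) and NCU09663, annotated as Axe2 (-0.32). The summed level of the list was 1586 ± 91.1 CPM in xyloglucan and 45234 ± 9525 CPM in avicel (SD, n = 3 each, exact permutation p = 0.1).

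Among the genes that carry xylose into metabolism, the called enzyme genes were lower and a transporter gene was higher. The gene for xylose reductase, *xr* (NCU08384), the first step, had 36.0, 32.0 and 33.1 CPM in xyloglucan and 3201, 2897 and 3337 CPM in avicel (log2 fold change -6.54, SE 0.37, adjusted p = 9.5e-13). The xylitol dehydrogenase gene NCU00891 (-3.44, SE 0.19) and the xylulose kinase gene *xyk-1* (-2.10, SE 0.17) were lower too. The transporter gene *xyt-1* (NCU05627), annotated also as a high-affinity glucose transporter, went the other way, with 1025, 648 and 783 CPM in xyloglucan and 108, 138 and 48.7 CPM in avicel (log2 fold change 3.06, SE 0.41, adjusted p = 1.5e-06). The transketolase genes NCU01328 (-0.77) and *tkl-1* (0.13) and the xylose dehydrogenase gene NCU01704 (-0.13) did not pass both thresholds. Of the 7 genes of this list, 1 was higher and 3 were lower, with a median log2 fold change of -0.77. That is 57.1% called, where 13% of all genes were.

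No gene of the xyloglucan list was called higher in xyloglucan by edgeR or DESeq2, and at an unadjusted p under 0.05, 2 of its 8 genes had a positive and 4 a negative log2 fold change. NCU05955, annotated as Cel74a, the name of a xyloglucanase, stood at 59.4, 56.5 and 55.6 CPM in xyloglucan and at 1014, 477 and 1239 CPM in avicel. All 3 xyloglucan values were under the lowest avicel value, and the log2 fold change was -3.99 (SE 0.33, adjusted p = 5.8e-10), a 15.9-fold lower level in xyloglucan. The α-xylosidase gene NCU04885, whose product removes the xylose side chains, had 139, 148 and 169.8 CPM in xyloglucan and 94.2, 125 and 86.9 CPM in avicel. The groups did not overlap there, but the log2 fold change of 0.58 (SE 0.21, adjusted p = 0.024) passed neither threshold.

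The β-galactosidase genes, for enzymes that remove galactose, gave no common direction. *gh35-2* (NCU04623) had 19.8, 19.2 and 19.3 CPM in xyloglucan and 42.5, 30.9 and 46.4 CPM in avicel and was lower by a narrow margin (log2 fold change -1.04, SE 0.21, adjusted p = 0.00027). Without avicel replicate 1 or without avicel replicate 3 its log2 fold change was -0.99 or -0.92 and the call was lost. *gh2-2* (NCU05956) had 191 ± 3.40 CPM in xyloglucan and 347 ± 43.6 CPM in avicel (SD, n = 3 each), with a log2 fold change of -0.86 that stayed under the fold threshold. *gh35-1* (0.22) and *gh2-3* (0.22), and the galactose-1-phosphate uridylyltransferase genes NCU04460 (0.20) and NCU07072 (-0.24), which act on the galactose set free, did not pass the test. Of the 8 genes of this list, all tested, 2 were lower (25%, against 7.89% of all genes), with a median log2 fold change of -0.02. The sum of the 8 genes was 913, 932 and 973 CPM in xyloglucan and 2018, 1349 and 2186 CPM in avicel (exact permutation p = 0.1).

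Genes for the other wall polysaccharides were mostly lower as well. Of 10 pectin genes, all tested, 6 were lower (60%) and 1 was higher (10%), where 7.89% and 5.11% of all genes were. The median log2 fold change was -2.12. The largest fall was that of the gene NCU09924, annotated as a BNR/Asp-box repeat protein (-4.84), followed by the pectate lyase gene NCU08176 (-4.11), the rhamnogalacturonase gene *asd-1* (-3.49) and the galactanase gene NCU00972 (-3.48). The exopolygalacturonase gene *gh28-2* (NCU06961) was the member that rose, with 303, 346 and 225 CPM in xyloglucan and 123, 84.7 and 89.8 CPM in avicel (log2 fold change 1.55, SE 0.30, adjusted p = 0.00016). It was the only called member of the 7 wall lists with a higher level in xyloglucan. Of the 2 mannan genes, *gh2-1* (NCU00890) fell, with 16.6, 18.6 and 18.1 CPM in xyloglucan and 153, 101 and 151 CPM in avicel (log2 fold change -2.93, SE 0.30), and NCU08087 did not pass (-0.21, adjusted p = 0.75).

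Over the 7 lists for cellulose, cellodextrins, xyloglucan, xylan, pectin and mannan together, 51 of 73 genes tested were lower and 1 was higher. These are 69.9% and 1.37%, where 7.89% and 5.11% of all genes were. At an unadjusted p under 0.05, 56 had negative and 5 positive log2 fold changes, and DESeq2 called 52 lower and 1 higher. The genes made up 0.577% of the counts on genes in xyloglucan and 12.96% in avicel. The avicel samples differed among themselves in this sum, with 5715, 5371 and 5637 CPM in xyloglucan and 138621, 87458 and 170384 CPM in avicel. Avicel replicate 2 was the lowest and replicate 3 the highest, and the gap between the groups was far larger than this spread. Over the 8 other carbon sources the mean sum ran from 2609.8 CPM in trehalose to 33091 CPM in cellobiose, so that xyloglucan lay inside that range and avicel above it.

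**Figure D3:**
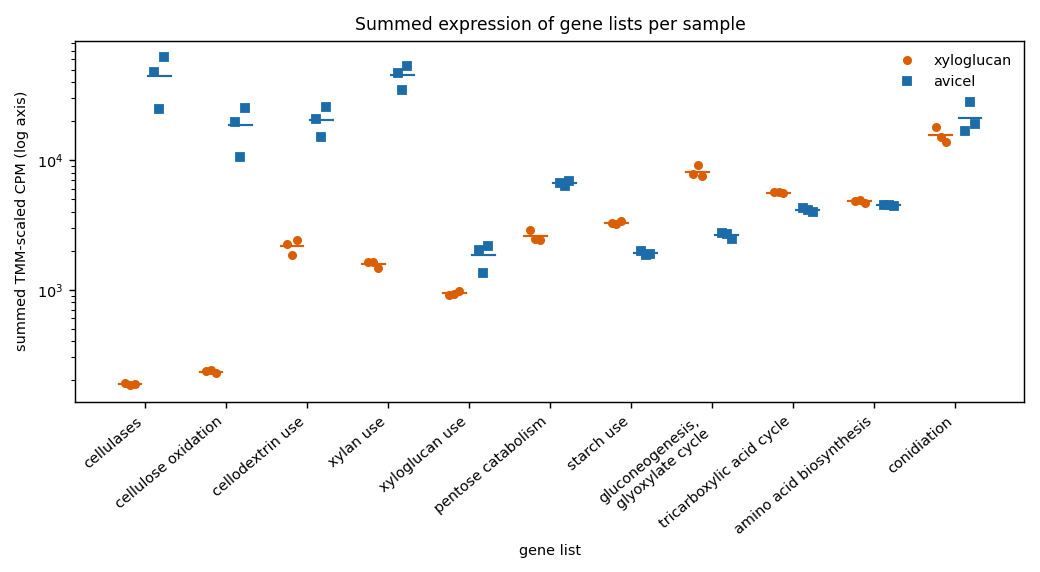
For 11 gene lists the summed TMM-scaled CPM (log y axis) is plotted for each of the 3 xyloglucan samples (circles) and the 3 avicel samples (squares), with lines at the group means. The cellulase sums lie between 183 and 191 CPM in xyloglucan and between 25041 and 62510 CPM in avicel, while the amino acid biosynthesis sums lie between 4672 and 4945 CPM in xyloglucan and between 4469 and 4540 CPM in avicel.

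The regulators of these genes differed in size of change. *clr-2* (NCU08042), a cellulase activator, had 9.53, 10.7 and 12.4 CPM in xyloglucan and 421, 208 and 513 CPM in avicel (log2 fold change -5.13, SE 0.30, adjusted p = 2.2e-12). *clr-1* (NCU07705), which acts with it, had 148, 153 and 137 CPM in xyloglucan and 355, 293 and 435 CPM in avicel (log2 fold change -1.30, SE 0.11, adjusted p = 7.9e-10). The fall of *clr-2* was thus far steeper than that of *clr-1*, and both lay outside the range of the other group in all samples. *xlr-1* (NCU06971), the xylanase regulator, had 146, 147 and 156 CPM in xyloglucan and 282, 204 and 327 CPM in avicel, and its log2 fold change of -0.86 (adjusted p = 4.0e-05) stayed under the fold threshold. The carbon catabolite repressor gene *cre-1* had 72.2, 76.6 and 77.3 CPM in xyloglucan and 144, 135 and 168 CPM in avicel (log2 fold change -0.98, adjusted p = 0.00025), just short of the threshold. *vib-1* (-0.60), *col-26* (0.53) and the C6 transcription factor gene NCU09033 (0.94) did not pass either, and *hac-1*, for the activator of the unfolded protein response, was lower (-1.23, SE 0.11). Of the 8 regulators, 3 were lower and none was higher, with a median log2 fold change of -0.92. That is 37.5% called, where 13% of all genes were. Without avicel replicate 2, *xlr-1* (-1.02) and *cre-1* (-1.05) were called lower, 5 regulators in all, and NCU09033 was called higher (1.01). *cre-1* was called lower also with DESeq2 (-1.025), without the filter on low counts (-1.003), without xyloglucan replicate 3 (-1.001) and without avicel replicate 1 (-1.01).

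Genes of protein folding in the endoplasmic reticulum, through which secreted enzymes pass, included *grp78* (NCU03982), for a chaperone of that compartment, with 1130.0, 1067 and 844 CPM in xyloglucan and 2997, 2204 and 4124 CPM in avicel (log2 fold change -1.62, SE 0.20, adjusted p = 4.1e-07). Of the 4 genes of this list 2 were lower, *grp78* and *hac-1*, or 50% where 7.89% of all genes were. The translocon gene NCU08897 (-0.92, adjusted p = 1.7e-05) stayed under the fold threshold and was called lower without avicel replicate 2 (-1.03). The oxidoreductin gene NCU02074 (-0.39) did not pass. All 4 genes had negative log2 fold changes at an unadjusted p under 0.05. The sum of the 4 genes was 1659, 1588 and 1366 CPM in xyloglucan and 4054, 3136 and 5332 CPM in avicel (exact permutation p = 0.1).

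Genes of gluconeogenesis and the glyoxylate cycle were among those that were higher in xyloglucan. *acu-6* (NCU09873) encodes phosphoenolpyruvate carboxykinase, the entry step of gluconeogenesis, and had 2934, 4014 and 2389 CPM in xyloglucan and 92.4, 147 and 44.8 CPM in avicel. Its log2 fold change of 5.04 (SE 0.38, adjusted p = 1.3e-10), or 32.8-fold, was the largest increase of the 434, and all 3 xyloglucan samples were above every avicel sample. *acu-9* (NCU10007), the malate synthase gene of the glyoxylate cycle, had 1431, 1699.6 and 1665 CPM in xyloglucan and 132, 145 and 45.7 CPM in avicel (log2 fold change 3.89, SE 0.37, adjusted p = 5.9e-09). *fbp-1* (NCU04797), for fructose-bisphosphatase, a later step of gluconeogenesis, had 743, 855 and 729.6 CPM in xyloglucan and 158, 165 and 104 CPM in avicel (log2 fold change 2.45, SE 0.28, adjusted p = 1.8e-07). In these genes avicel replicate 3 was the lowest of its group, and the lowest xyloglucan sample remained several times above the highest avicel sample.

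The acetyl-CoA synthetase gene *acu-5* was the fourth member that rose (1.97, SE 0.41). *acu-3*, for isocitrate lyase, the other enzyme particular to the glyoxylate cycle, had a mean of 284 ± 56.5 CPM in xyloglucan and 135 ± 32.9 CPM in avicel (SD, n = 3 each) and did not pass (log2 fold change 1.08, adjusted p = 0.18). Of the 9 genes of this list, all tested, 4 were higher (44.4%, against 5.11% of all genes) and none was lower. The median log2 fold change of the 9 genes was 1.08. Their sum was 7782, 9184 and 7539 CPM in xyloglucan and 2748, 2708 and 2475 CPM in avicel (exact permutation p = 0.1). Of 16 genes of the tricarboxylic acid cycle, 2 were higher, *tca-14* (1.40) and *tca-2* (1.29), and none was lower, with a median log2 fold change of 0.29. These are 12.5% of the list, where 13% of all genes were called in either direction and 5.11% were called higher. At an unadjusted p under 0.05, 7 of the 16 genes had positive and 0 negative log2 fold changes. Over all 8501 genes, 1431 had positive log2 fold changes even at an adjusted p under 0.01. The sum of the 16 genes was 5658, 5655 and 5590 CPM in xyloglucan and 4250, 4110 and 3965 CPM in avicel (exact permutation p = 0.1). The call of *tca-2* was lost on leaving out any sample but xyloglucan replicate 1.

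Beyond the lists, the rule for named genes took the 15 largest increases, from 3.26 to 5.04 on the log2 scale, and several encode enzymes that break down amino acids. NCU05499, annotated as homogentisate 1,2-dioxygenase, and NCU05537, annotated as fumarylacetoacetase, catalyse late steps of tyrosine and phenylalanine breakdown. NCU05499 had 628, 808 and 874 CPM in xyloglucan and 62.8, 83.7 and 11.1 CPM in avicel (log2 fold change 3.87, SE 0.58, adjusted p = 7.7e-06). NCU05537 had 469, 565 and 629 CPM in xyloglucan and 63.1, 77.8 and 21.3 CPM in avicel (log2 fold change 3.36, SE 0.45). For 4-hydroxyphenylpyruvate dioxygenase (NCU01830), an earlier step of the same route, the values were 743, 866 and 866 CPM in xyloglucan and 97.4, 88.3 and 72.3 CPM in avicel (log2 fold change 3.26, SE 0.53, adjusted p = 2.0e-05), and this gene was chosen after its values were seen.

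Enzymes of leucine breakdown were among the same 15 genes. NCU02704, annotated as the E2 component of branched-chain α-keto acid dehydrogenase, had 444, 699 and 833 CPM in xyloglucan and 46.8, 69.1 and 8.10 CPM in avicel (log2 fold change 3.99, SE 0.65). NCU02126, isovaleryl-CoA dehydrogenase, the next enzyme, had 187, 274 and 359 CPM in xyloglucan and 27.9, 41.6 and 10.3 CPM in avicel (log2 fold change 3.36, SE 0.38). NCU02127, the β subunit of methylcrotonoyl-CoA carboxylase, the enzyme after it, had 302, 424 and 557 CPM in xyloglucan and 39.8, 50.8 and 8.79 CPM in avicel (log2 fold change 3.69, SE 0.49). Adjusted p was at most 2.0e-05 for these 3 genes, and in each of them avicel replicate 3 was the lowest of its group by a wide margin. The α subunit gene of the carboxylase, NCU00591 (2.45), and a branched-chain aminotransferase gene, NCU04292 (3.12), were also higher, as were the proline oxidase gene NCU02936 (2.40), the pyrroline-5-carboxylate dehydrogenase gene NCU03076 (2.81) and a proline permease gene, NCU00721 (2.78), all chosen after their values were seen. No list of amino acid breakdown was drawn up, so that no count can be set against the background for it.

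Tryptophan breakdown was represented by NCU01402, annotated as indoleamine 2,3-dioxygenase, its first enzyme. It had 393, 336 and 304 CPM in xyloglucan and 14.2, 14.3 and 4.29 CPM in avicel (log2 fold change 4.97, SE 0.63, adjusted p = 7.0e-07). Another of the 15 was NCU02361, annotated only as a formamidase, and whether it acts in tryptophan breakdown was not tested. It had 357, 428 and 273 CPM in xyloglucan and 34.1, 32.5 and 26.4 CPM in avicel (log2 fold change 3.51, SE 0.21, adjusted p = 2.0e-12). The groups did not overlap, which the rule for these 15 genes required. NCU06895, annotated as cytochrome P450 4A5, had 1561, 1866 and 2028 CPM in xyloglucan and 124, 136 and 28.6 CPM in avicel (log2 fold change 4.24, SE 0.67). The rest of the 15 were *ccg-13* (4.21) and *ccg-14* (3.26), found as clock-controlled genes, *ncw-5* (3.74), for a cell wall protein, and the unannotated NCU03913 (3.55) and NCU06137 (3.29). NCU06137 lost its call when xyloglucan replicate 3 or any of the 3 avicel replicates was left out.

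Of the 15 largest decreases, from -10.79 to -7.80, 10 belonged to the wall lists described above. The other 5 were NCU04870 (-9.55), NCU09664 (-8.94), NCU07224 (-8.07), NCU00449 (-8.06) and NCU08785 (-7.80), none of which carries a description in the annotations used. NCU04870 had 1.10, 1.26 and 1.24 CPM in xyloglucan and 962, 672 and 1076 CPM in avicel, so that it stayed close to 1 CPM on xyloglucan and was well expressed on avicel.

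**Figure D4:**
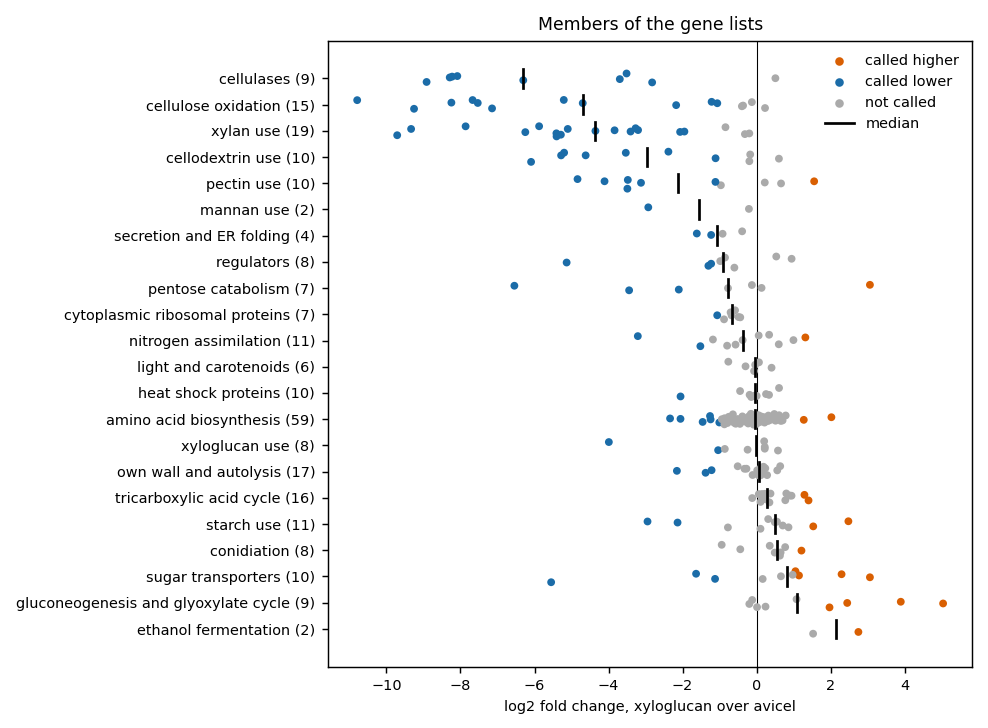
Each point is a tested member of 1 of 22 gene lists (number tested in brackets), placed by its log2 fold change, xyloglucan over avicel, and coloured by its call, and black lines mark the list medians. Medians run from -6.30 for the cellulases to 2.14 for the 2 genes of ethanol fermentation, and those of amino acid biosynthesis and heat shock proteins lie near 0.

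Genes of sugar uptake and of starch use gave mixed directions. Of 10 sugar transporter genes, 4 were higher (40%) and 3 lower (30%), where 5.11% and 7.89% of all genes were. The median log2 fold change was 0.81. Beside *xyt-1*, the higher ones were NCU05897, annotated as an L-fucose permease (2.29, SE 0.27), the high-affinity glucose transporter gene NCU04963 (1.14) and NCU00821 (1.05). NCU06138, annotated as a quinate permease, fell the most, with 46.0, 40.2 and 35.9 CPM in xyloglucan and 1941, 1641 and 2145 CPM in avicel (log2 fold change -5.55, SE 0.29). NCU04537 (-1.64) and NCU12154 (-1.12) were lower, the first not without xyloglucan replicate 2 and the second not in 4 of the 6 fits that left out 1 sample, so that the count of lower transporters was 1 to 3 over those fits, with 1 when xyloglucan replicate 2 was left out. NCU04963 lost its call without xyloglucan replicate 3 and without avicel replicate 3, and NCU00821 without avicel replicate 3. *hgt-1*, *sor-4* and NCU02188 did not pass (0.66, 0.16 and 0.97). Of 11 starch genes, 2 were higher, the α-glucosidase genes *gh31-3* (log2 fold change 2.48, SE 0.16) and *gh31-1* (1.53, SE 0.26), and 2 were lower, the amylase gene *gh13-6* (-2.14) and NCU08746, for a protein with a starch binding domain (-2.95), with a median of 0.49. The glucoamylase gene *gla-1* had 359 ± 65.7 CPM in xyloglucan and 246 ± 36.7 CPM in avicel (SD, n = 3 each, adjusted p = 0.063). *gla-2* (0.86, adjusted p = 3.8e-05) and *gh13-1* (0.70, adjusted p = 4.2e-06) stayed under the fold threshold. At an unadjusted p under 0.05, 6 of the 11 starch genes had positive and 3 negative log2 fold changes. Of the list 36.4% was called, where 13% of all genes were. The sum of the 11 genes was 3262, 3202 and 3385 CPM in xyloglucan and 2001, 1852 and 1887 CPM in avicel (exact permutation p = 0.1).

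The alcohol dehydrogenase gene *adh-1* (NCU01754) had 3167, 3413 and 5832 CPM in xyloglucan and 770.1, 895 and 183 CPM in avicel. Avicel replicate 3 was again the lowest sample, and no values overlapped (log2 fold change 2.75, SE 0.52, adjusted p = 0.00011). *cfp*, for pyruvate decarboxylase, the step before it, had 189, 245 and 366 CPM in xyloglucan and 122, 110.1 and 46.0 CPM in avicel and missed the threshold (log2 fold change 1.52, adjusted p = 0.014). Another gene annotated as pyruvate decarboxylase, *ilv-5*, was higher (log2 fold change 2.02) and is counted below under amino acid biosynthesis.

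In nitrogen metabolism 1 of 11 genes was higher and 2 were lower, with a median log2 fold change of -0.38. These are 9.09% higher and 18.2% lower, where 5.11% and 7.89% of all genes were. *am*, the glutamate dehydrogenase gene by which ammonium is assimilated, had 32.1, 28.5 and 21.7 CPM in xyloglucan and 205, 141 and 415 CPM in avicel (log2 fold change -3.21, SE 0.36, adjusted p = 1.2e-07). *cpc-1*, the activator of amino acid biosynthesis genes, had 826, 778 and 745 CPM in xyloglucan and 2159, 1769 and 2813 CPM in avicel (log2 fold change -1.52, SE 0.17). The neutral amino acid permease gene *mtr* was higher (1.32, adjusted p = 0.0025), but lost its call without xyloglucan replicate 3 and without avicel replicate 1 or 3, and with the covariate. The glutamine synthetase gene *gln-2* (0.99, just under the fold threshold) was called higher without xyloglucan replicate 1 (1.08), without avicel replicate 1 (1.03) or 3 (1.02), without TMM (1.06), with a replicate block (1.004) and with the covariate (1.34). Of 59 amino acid biosynthesis genes, 2 were higher and 6 lower, or 13.6% called, near the 13% of all genes, with a median of -0.04. The largest of these differences were *aro-6* (-2.34), for the first step towards the aromatic amino acids, *ilv-2* (-2.06), for ketol-acid reductoisomerase, and *ilv-5* (2.02), which was higher. *cys-16*, the other higher gene (1.27), lost its call without xyloglucan replicate 3, without avicel replicate 3 and with the covariate. All 7 cytoplasmic ribosomal protein genes listed had negative log2 fold changes, with a median of -0.68, but of these *crp-10* alone was called lower (-1.07), and not without avicel replicate 3. This call is 14.3% of the list, near the 13% of all genes called. All 7 had an unadjusted p under 0.05.

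In the remaining lists 17.6% (own wall), 10.0% (heat shock), 12.5% (conidiation) and none (light) of the genes were called, where 13% of all genes were. Of 17 genes for enzymes that act on the wall of the fungus itself, 3 were lower, the glucanase genes NCU04850 (-2.15) and NCU01080 (-1.22) and the chitinase gene *gh18-5* (-1.38), with a median log2 fold change of 0.05. Of 10 heat shock genes 1 was lower, *hsp70-2* (-2.06), with a median of -0.05, and of 6 genes of light response and carotenoid synthesis none was called by edgeR or DESeq2, although 2 had an unadjusted p under 0.05. The largest difference among them was that of *al-2* (-0.77, adjusted p = 4.6e-06). Of the 5 conidial markers *con-6*, *con-8*, *con-10*, *con-13* and *eas*, which would mark spore formation in these mycelial cultures, none was called, 2 had an unadjusted p under 0.05 (*con-6* with a log2 fold change of -0.94 and *con-10* with 0.65), none was at 0, and their sum was 17841, 14768 and 13495 CPM in xyloglucan and 16468, 28109 and 18829 CPM in avicel. Most of it was *eas*, the gene of the hydrophobin that coats conidia, with 15069.8, 12214 and 11537 CPM in xyloglucan and 13219, 23972 and 15559 CPM in avicel (log2 fold change -0.44, adjusted p = 0.23). *csp-1*, named for conidial separation, was higher (1.21), the 1 called gene of 8 in the conidiation list. The part of conidia in the other results was not tested.

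The levels on the other 8 carbon sources show on which side of the comparison a gene departed from the rest. The 2 contrasts with the mean of those 8 sources share these samples, so that their values are given side by side only. For *cbh-1* the log2 difference from that mean was -0.14 in xyloglucan and 8.09 in avicel, for *gh11-2* it was -0.47 in xyloglucan and 8.86 in avicel, and for NCU05955 0.34 in xyloglucan and 4.33 in avicel. For *clr-2* it was -0.64 in xyloglucan and 4.49 in avicel. Each of these genes lay within a log2 unit of that mean on xyloglucan and far above it on avicel. The mean hides differences between the 8 sources: *cbh-1* averaged 78.6 ± 1.11 CPM in xyloglucan and 3969 ± 3029.6 CPM in cellobiose, and *gh11-2* averaged 23.9 ± 4.46 CPM in xyloglucan and 2146 ± 531 CPM in xylose (SD, n = 3 each). The median over the cellulase list was 0.25 in xyloglucan and 6.55 in avicel. Avicel had the highest mean of the 10 sources in 15 of the 15 largest decreases. Those genes were picked for a large fall and at least 10 CPM on avicel, so that this rank was largely set by the choice. Over all 671 lower genes avicel was highest in 308.

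Among the increases the picture was mixed. *acu-6* was 2.57 in xyloglucan and -2.46 in avicel on the same log2 scale, the highest and the lowest of the 10 means, and NCU02361 (1.69 in xyloglucan and -1.82 in avicel) likewise held both ends. NCU05499 (4.31 in xyloglucan and 0.44 in avicel), NCU01402 (6.62 in xyloglucan and 1.66 in avicel) and NCU01830 (6.81 in xyloglucan and 3.55 in avicel) were above that mean on xyloglucan, and NCU01402 and NCU01830 on avicel as well, while NCU05499 did not pass the test on avicel (adjusted p = 0.33). *ccg-13* (0.54 in xyloglucan and -3.67 in avicel), *ncw-5* (0.01 in xyloglucan and -3.72 in avicel) and *adh-1* (0.22 in xyloglucan and -2.53 in avicel) departed downwards on avicel. The level of NCU05499 in mannose, 742 ± 371 CPM, was within its own spread of that in xyloglucan, 769.9 ± 127 CPM (SD, n = 3 each), while fructose had 42.2 ± 11.8 CPM. NCU05537 and the leucine and proline genes named above had their highest mean of the 10 sources in mannose, above xyloglucan. For NCU02704 the means were 1464 ± 652 CPM in mannose and 659 ± 198 CPM in xyloglucan. For NCU03076 they were 1565 ± 540 CPM in mannose and 680 ± 164 CPM in xyloglucan (SD, n = 3 each). Over all 434 higher genes, xyloglucan had the highest of the 10 means in 105 and avicel the lowest in 156, and over the 671 lower genes, xyloglucan had the lowest mean in 182 and avicel the highest in 308.

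**Figure D5:**
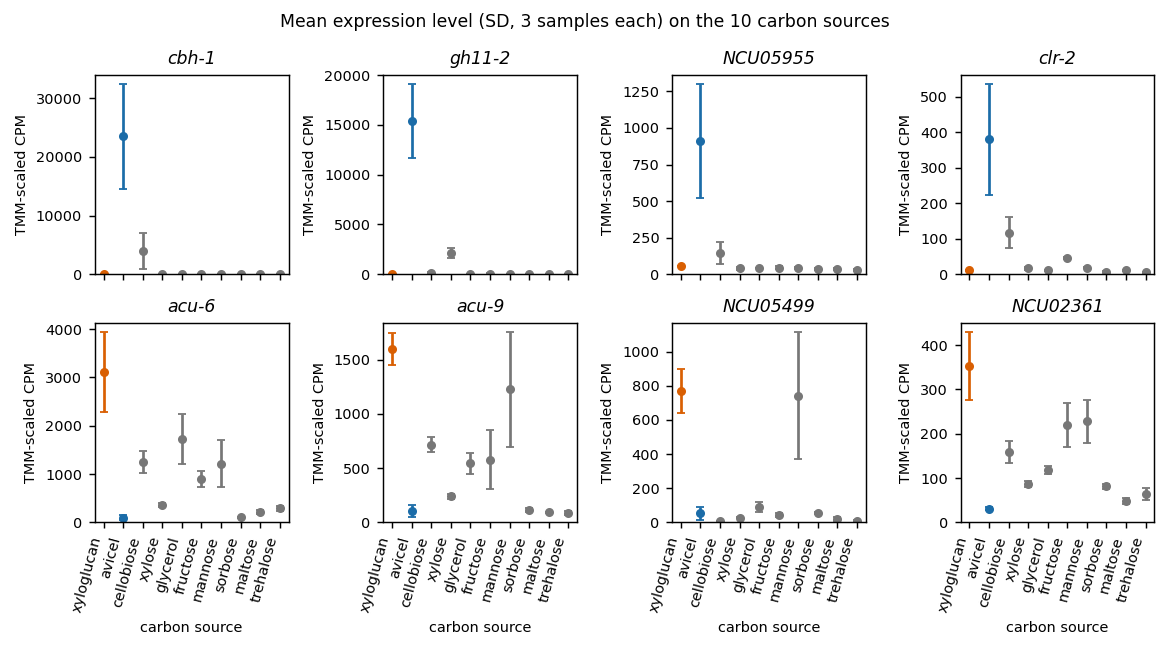
Mean TMM-scaled CPM with SD (3 samples each) of 8 genes on the 10 carbon sources, xyloglucan and avicel first. *cbh-1*, *gh11-2*, NCU05955 and *clr-2* peak on avicel while their xyloglucan points lie near those of most sugars, with cellobiose (*cbh-1*, NCU05955, *clr-2*) or xylose (*gh11-2*) in between, and *acu-6*, *acu-9*, NCU05499 and NCU02361 have their highest mean on xyloglucan.

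Changed genes also lay side by side in the genome. With a run defined as at least 3 genes called in the same direction, with at most 1 other gene between them in the RefSeq gene order, 37 runs held 131 of the lower genes and 13 runs held 43 of the higher genes. These numbers were not set against chance. The run with the largest mean fall was NCU07226, *gh11-2* and NCU07224, with log2 fold changes of -3.75, -9.33 and -8.07. NCU07226 had 0.110, 0.0740 and 0.0622 CPM in xyloglucan and 1.15, 1.13 and 1.38 CPM in avicel, and with the share of alignments to several places as a covariate NCU07226 was no longer called (log2 fold change -0.18). The next runs were NCU00763, *gh5-1* and the lipase gene NCU00761 (-5.99, -8.91 and -2.06), and NCU07511, NCU07510 and *gh10-2*, with -3.40 for the first and -5.88 for the last, while NCU07510 had 1, 0 and 1 counts in the xyloglucan samples, against 81, 74 and 87 counts in the avicel samples. The strand setting of the counting is not given in the sources used here, so that reads of overlapping neighbours cannot be told apart.

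The runs with the largest mean rise were NCU07737, NCU07736 and NCU09823, with log2 fold changes of 3.23, 2.53 and 2.25, the genes NCU09956 to NCU09959 (2.43, 2.43, 2.54 and 1.87), and the phosphoketolase gene NCU06123 with NCU06121 and NCU06120 (1.31, 2.46 and 2.55). NCU06121 lost its call without xyloglucan replicate 3 and without avicel replicate 1. The longest run, which was singled out after its values were seen, had 8 adjacent genes, all lower, from NCU05761 to NCU17270. Their mean levels were 2.40 to 14.2 CPM in xyloglucan and 13.8 to 66.8 CPM in avicel, with log2 fold changes of -3.38 to -2.20. In all 8 genes avicel had the second highest and xyloglucan the second lowest of the 10 means.

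The genes with the most counts were partly shared. Of the 10 genes with the most counts over the 6 samples, *cbh-1*, *gh11-2* and NCU05159 were lower and are described above. The unannotated NCU06110 (18848 ± 1211 CPM in xyloglucan and 7199 ± 453 CPM in avicel, log2 fold change 1.39) and NCU05498 (14767 ± 953 CPM in xyloglucan and 5266 ± 898 CPM in avicel, 1.49) were higher (SD, n = 3 each). *eas*, *ccg-1* (0.60), the elongation factor gene *tef-1* (-0.34), NCU10040 (-0.14) and the serine protease gene NCU00673 (0.78) were not called.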

How the data were processed

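RNA-seq was done on mycelia of 30 WT samples, 3 for each of 10 carbon sources, and the 3 xyloglucan and 3 avicel samples were compared. The deposited files hold raw counts per gene: per the methods and the submitters' processing notes, the authors basecalled reads with CASAVA 1.8, mapped them to predicted transcripts of strain OR74A with TopHat2 2.0.4 and counted unique alignments with HTSeq 0.6.0. The same notes list DESeq2 1.10.1. The 5 rows of reads without a gene were left out of library sizes.

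Counts were tested in edgeR 4.0.16 (R 4.3.3) with filterByExpr, TMM scaling, 1 mean per carbon source over all 30 samples and glmQLFTest for xyloglucan minus avicel. A gene was called at a fold change above 2 and a Benjamini-Hochberg adjusted p under 0.01 over 8501 of 9758 genes, the thresholds the study used. SE is the log2 fold change divided by the root of F. Each polysaccharide was also contrasted with the mean of the 8 other sources. The tests were checked on simulated counts.

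Gene lists were written by hand and completed by RefSeq symbols, and 14 entries whose annotation was missing or spoke against their name were dropped before their values were read. Names come from the RefSeq table for assembly NC12, which held 9757 of 9758 genes, and from annotations in the supplementary tables. The named genes were the 15 largest increases and decreases with at least 10 CPM in the higher group and no overlap, the leading members of each list, all members of the cellulase, xyloglucan, mannan and regulator lists, the leading 3 runs of neighbours in each direction and the 10 genes with the most counts. Uncalled list members are given as well, and 7 genes were added after their values were seen. The members and lists were chosen with earlier results of these data known. List sums were compared by exact permutation (scipy 1.17.1). Alternatives were DESeq2 1.42.0, no TMM, no filter, a replicate block, the 6 samples alone, glmTreat, leaving out each replicate and, chosen after seeing the data, the share of alignments to several places as a covariate. Whether replicate numbers marked shared cultures is not given in the sources used here, and p-values measure the spread between these samples. The RefSeq table also gave the order of neighbouring genes, and no sequences were used here.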

Additional observations from a re-analysis of the deposited data

Results flagged for a closer look

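The share of counted alignments that mapped to several places, which enters no gene's count, was 2.89%, 3.33% and 2.17% in the xyloglucan samples (mean 2.8% ± 0.583, SD, n = 3), against 0.238%, 0.269% and 0.217% in the avicel samples (mean 0.241% ± 0.0258, SD, n = 3). It was singled out because it lies outside the main measurement and is higher in xyloglucan than in avicel in every sample. The other 24 samples had 0.966% to 6.05%, so that the avicel samples were the lowest 3 of the 30. Its part in the differences between genes was not tested beyond the covariate fit given above.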

How the results depend on the processing

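The 1105 changed genes (434 higher, 671 lower) became 1149 (420 higher, 729 lower) with DESeq2, 1113 (503 higher, 610 lower) without TMM, 1135 (426 higher, 709 lower) without the filter, 1102 (423 higher, 679 lower) in the 6 samples alone, 999 (416 higher, 583 lower) with the covariate and 956 to 1150 when 1 sample was left out, the lowest without avicel replicate 3. glmTreat, which tests against a fold change of 2 rather than 0, called 412 genes (122 higher, 290 lower). Same-numbered samples did not deviate together (correlations of -0.092, -0.086 and -0.21). With 3 samples per group these correlations cannot exclude that the numbers mark shared cultures. With a replicate block 1124 genes were called (445 higher, 679 lower), 1104 of them shared, with *cfp* (2 ethanol genes higher) and *gln-2* (2 nitrogen genes higher) gained.

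Of the list and count results under an alternative, 784 stayed within the limits set and 49 moved, all given here. With DESeq2, without TMM and with the covariate, 2 ethanol genes were higher. Without TMM, 1 xyloglucan gene was lower, 1 regulator and 2 nitrogen genes were higher, and the log2 ratios of summed CPM were 0.52 for the tricarboxylic acid cycle, 0.16 for amino acid biosynthesis and -0.016 for heat shock proteins, with a median over all genes of 0.07. With glmTreat, 0 pectin, nitrogen, conidiation and tricarboxylic acid cycle genes, 0 wall genes together, 1 starch and amino acid biosynthesis gene each and 2 sugar transporters were higher, and 1 xyloglucan gene, regulator, sugar transporter, secretion, nitrogen and own wall gene each, 2 amino acid biosynthesis genes and 0 ribosomal protein genes were lower. With the covariate, 0 pectin genes and 0 wall genes together were higher, and 1 sugar transporter, 3 amino acid biosynthesis genes and 0 ribosomal protein genes were lower. Leaving out 1 sample gave 1 to 2 xyloglucan genes lower, 0 to 1 regulators higher and 3 to 5 lower, 1 to 3 sugar transporters lower, 0 to 2 nitrogen genes higher, 1 to 2 tricarboxylic acid cycle and amino acid biosynthesis genes higher each, and 0 to 1 ribosomal protein genes lower. The cause was not tested.

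Signs changed only in genes that were not called: *acu-15* with DESeq2 (-0.031), without the filter (-0.0090) and in the 6 samples (-0.0015), with -0.034 to 0.039 on leaving out 1 sample, *hsp80* without TMM (0.065) and with the block (0.00046), with -0.038 to 0.051 on leaving out 1 sample, *cys-18* without TMM (0.0030), with -0.12 to 0.0067 on leaving out 1 sample, NCU08087 with the covariate (0.75), with -0.49 to 0.095 on leaving out 1 sample, and, with the covariate, NCU01704 (0.21), *gh6-1* (-0.30) and *hsp88* (0.079). In every fit run 8 cellulase genes were lower, with 15 to 16 xylan, 9 to 11 cellulose oxidation and 6 to 7 cellodextrin genes. Genes with a few counts in xyloglucan, such as NCU07226 and NCU07224, have fold changes that depend on the prior count.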

Other observations

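*cbt-1*, for the cellobionic acid transporter, was lower in xyloglucan than in avicel, but it lay above the mean of the other 8 carbon sources on both, by 2.51 in xyloglucan and 4.90 in avicel on the log2 scale. Its mean level was 553 ± 75.5 CPM in xyloglucan and 2889 ± 614 CPM in avicel, against 783 ± 317 CPM in cellobiose (SD, n = 3 each). The acetolactate synthase gene NCU08771, named after its values were seen, had 3716, 4609 and 4849 CPM in xyloglucan and 924, 999 and 549 CPM in avicel (log2 fold change 2.41, SE 0.35), and lost its call with the covariate (1.62). Its mean in mannose was higher, at 8041 ± 3546 CPM (SD, n = 3).

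Of the 434 genes that were higher in xyloglucan, 146 were also called against the mean of the 8 other sources on xyloglucan only, 118 on avicel only, 21 on both and 149 on neither. Of the 671 lower genes, 187 were called on xyloglucan only, 262 on avicel only, 65 on both and 157 on neither. The 8 sources are shared by both contrasts, so that these counts describe the calls and do not compare the polysaccharides.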
